A study of Mus musculus with 4 samples.

Results

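The enzymes of serine synthesis and of folate-bound one-carbon metabolism were followed in macrophages grown from mouse bone marrow and exposed to interleukin-4 (IL-4). They are 10 genes listed by name and chosen with earlier results of these data known. All 10 symbols were found among the 23259 with a value in every library. Phgdh, Psat1 and Psph make serine. Shmt2, Mthfd2, Mthfd2l, Mthfd1l and Aldh1l2 act on folate in mitochondria, and Shmt1 and Mthfd1 act on it in the cytosol. The cells came from C57BL/6 mice aged 7 weeks, and all cultures received IL-4 for 24 h, so no untreated culture was compared. There were 2 wild type libraries and 2 libraries of Sema6D-/-, by their genotype labels. The latter genotype lacks the membrane semaphorin Sema6D. No label states how the allele was made. None tells whether the pair of libraries under 1 genotype stems from different animals or dishes, so every p-value reflects the spread of these samples alone, and that spread may be technical.

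Serine is made from 3-phosphoglycerate, an intermediate of glycolysis, by oxidation (PHGDH), transfer of an amino group from glutamate (PSAT1) and removal of the phosphate (PSPH). The SHMT enzymes split serine into glycine and a carbon unit that is carried on tetrahydrofolate. In mitochondria that unit is oxidised by MTHFD2 or MTHFD2L and released as formate by MTHFD1L, or burned to carbon dioxide by ALDH1L2, and in the cytosol MTHFD1 takes up formate for the synthesis of purines and thymidylate. In macrophages the pathway is known for feeding glycine and carbon units into glutathione, nucleotides and methylation during activation, and the transcription factor ATF4 is a known activator of several of its genes.

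The libraries were compared as labelled. The 2 samples titled with the letter K have the genotype label wild type, and the 2 titled with W have Sema6D-/-. If the labels had been exchanged, every direction below would turn. Sema6d itself was at 0.166 and 0.389 FPKM (fragment numbers scaled to transcript length and library size) in the libraries labelled wild type and at 0.106 and 0.315 in those labelled Sema6D-/-, so it did not separate the labels. The estimated depth was about 8400000 to 9400000 fragments per library. Macrophage markers were abundant in all libraries, with a summed level of 6020 and 5740 FPKM for 10 markers under the label wild type and 5430 and 5440 under Sema6D-/-. Lyz2 and Cd68 carried most of that sum, and of 9 tested macrophage markers 1 was higher (Emr1, 332 to 470 FPKM in the mean) and 3 were lower (Cd14, 53.1 to 27.8, Itgam, 294 to 212, and Lyz2, 3199 to 2483), named after their values were seen. Summed neutrophil markers (11 of 12 listed were found, none at 0 in all libraries) stood at 257 and 238 FPKM against 788 and 649. Markers of B cells, erythroid cells and T and NK cells summed to at most 1.82 FPKM in any library.

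All 3 genes of serine synthesis and 2 of the 5 mitochondrial folate genes, Mthfd2 and Shmt2, were called higher in the libraries labelled Sema6D-/-, and 0 of the 2 cytosolic genes were. The call of Shmt2 was lost in 3 of the 4 fits that left out 1 library. Phgdh rose 7.69-fold in mean FPKM, Mthfd2 2.01-fold, Psat1 1.87-fold, Psph 1.74-fold and Shmt2 1.48-fold, while Mthfd1 stood at 1.01 times its level under the label wild type. The test was limma on log2(FPKM + 1), fitted to the 10115 genes that averaged 1 FPKM or more over the libraries and adjusted over all of them by the Benjamini-Hochberg method. Of the 10 enzymes 7 reached that level, and of these 5 were higher, 0 lower (also 0 at an unadjusted p under 0.05) and 2 did not pass. Over all genes tested, 4.8% were called higher and 4.91% lower. Since the enzymes were chosen with earlier results of these data known, their count beside these shares is a description and no independent test. Phgdh reached the level only through its values under the label Sema6D-/- and so had to differ. Among the 6 enzymes that were at 1 FPKM or more under both labels, 4 were called higher. Without Sema6D-/- replicate 1 or replicate 2 the number called higher was 3 of 7 in each case, namely Phgdh, Psat1 and Mthfd2.

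**Figure D1:**
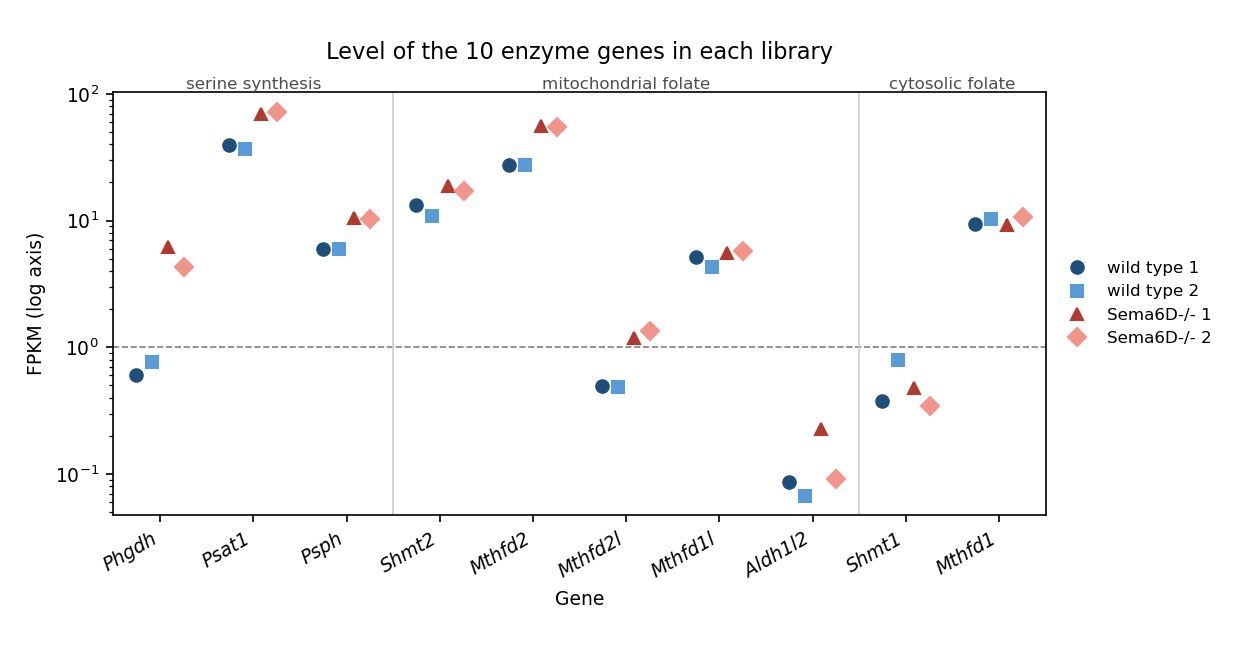
FPKM of each enzyme gene (log axis) in the 4 libraries, with 1 symbol per library and a dashed line at 1 FPKM; the number after each label is the replicate. Both Sema6D-/- points lie above both wild type points for all serine synthesis and mitochondrial genes, narrowly for Mthfd1l and Aldh1l2, and the labels overlap for Shmt1 and Mthfd1.

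Phgdh, the gene of the committed oxidation step, was at 0.605 and 0.769 FPKM in the libraries labelled wild type and at 6.22 and 4.34 in those labelled Sema6D-/-. The labels lay far apart, and the 2 Sema6D-/- libraries also differed from each other more than the 2 wild type libraries did. By the estimated depth these values rest on about 14 and 18 fragments against 130 and 94. The difference was 1.88 ± 0.18 (SE) in log2(FPKM + 1) and ranged from 1.66 to 2.10 with 1 library left out. In the fit without a filter on level, its adjusted p was 0.0313 by limma. Phgdh lies on chromosome 3 from 98313170 to 98339990, and its longest transcript matched 17 annotated processed pseudogenes at 90.4% to 98.7% identity over 478 to 1621 bases. Only Gm8096 of these copies has a row in the files, where it is listed at 0 in every library, and how reads that map to several places were counted is not given in the sources used here. The level of Phgdh is therefore uncertain.

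Psat1, the aminotransferase gene, was the most abundant of the 10 in every library, at 39.5 and 36.6 FPKM for wild type and 69.5 and 72.5 for Sema6D-/-. Each pair of replicates was close and the labels did not overlap. The difference was 0.89 ± 0.06 (SE; adjusted p = 0.00208 by limma), and it stayed between 0.83 and 0.94 with 1 library left out. Psph, the phosphatase gene that ends the pathway, was at 5.98 and 5.92 against 10.5 and 10.2 FPKM, again with replicates closer to each other than to the other label. Its difference of 0.71 ± 0.07 (SE) had an adjusted p of 0.00688 by limma, and of 0.0867 without Sema6D-/- replicate 1 and 0.0661 without replicate 2. Psat1 (chromosome 19, 15904678 to 15947337) had 1 processed pseudogene of 91.0% identity. Psph (chromosome 5, 129765558 to 129787449) shares 452 exon bases with Cct6a on the opposite strand, a chaperonin gene at 114 and 112 against 104 and 112 FPKM. The libraries were strand-specific, but the strand setting of the quantification is not given in the sources used here.

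**Figure D2:**
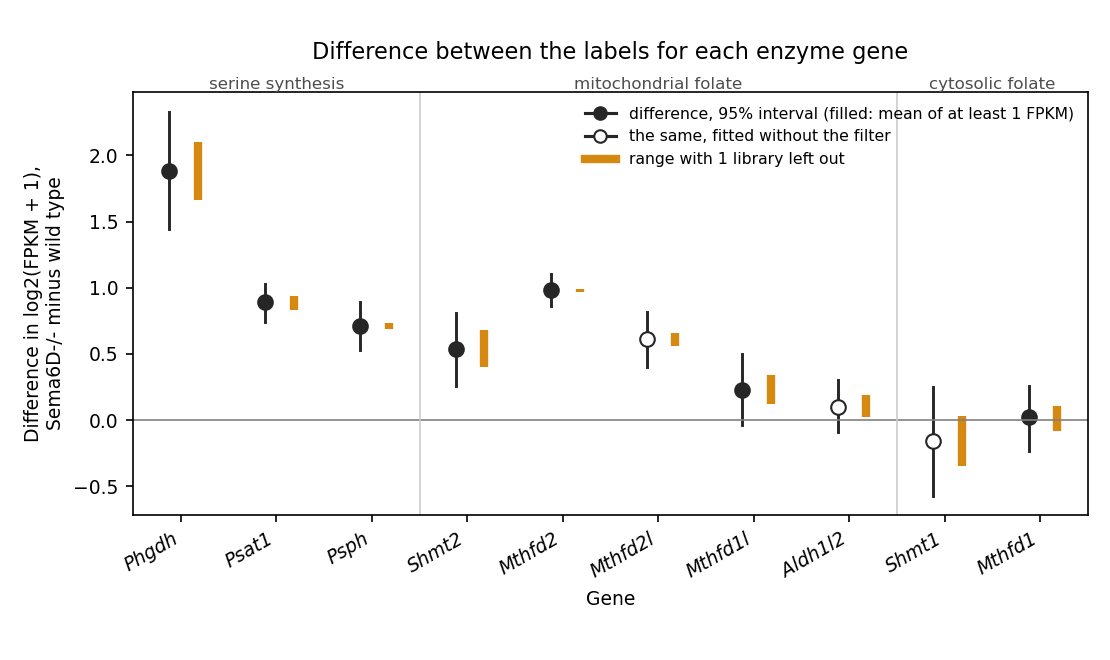
Difference in log2(FPKM + 1), Sema6D-/- minus wild type, for each enzyme gene, with its 95% interval from limma (filled, genes of at least 1 FPKM on average; open, fitted without that filter) and, in orange, the range when 1 of the 4 libraries is left out. Phgdh stands highest at 1.88, Mthfd2, Psat1 and Psph lie between 0.71 and 0.98, and the intervals of Mthfd1l, Aldh1l2, Shmt1 and Mthfd1 include 0.

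Since the serine synthesis genes and Mthfd2 moved together, their promoters were read for the letters of 3 elements through which transcription of this pathway is known to be controlled. RefSeq (GRCm38.p6) gave windows of 300 bases, from 250 before to 50 after a start site, for 9 of the 10 enzymes, all except Aldh1l2. Psat1 had 2 windows, of which the first is used below and the second (chr19:15924573-15924872) held 0 matches. The gene spans of Psat1, Psph and Mthfd2 given here reach upstream of the printed stretches, so other start sites are possible. The stretches of 150 bases before the start site of the 4 genes with the smallest p follow, 5′ to 3′ on the strand of the gene. Capitals mark the antioxidant response element (in Phgdh) and CCAAT boxes on either strand.
Phgdh, chr3:98339970-98340119, minus strand: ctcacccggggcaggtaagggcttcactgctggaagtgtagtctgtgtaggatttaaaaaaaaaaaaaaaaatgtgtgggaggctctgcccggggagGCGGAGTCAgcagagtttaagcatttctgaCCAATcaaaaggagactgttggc
Psat1, chr19:15925060-15925209, minus strand: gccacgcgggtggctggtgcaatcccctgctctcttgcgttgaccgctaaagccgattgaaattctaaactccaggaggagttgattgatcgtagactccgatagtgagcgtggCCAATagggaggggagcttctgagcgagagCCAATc
Psph, chr5:129787254-129787403, minus strand: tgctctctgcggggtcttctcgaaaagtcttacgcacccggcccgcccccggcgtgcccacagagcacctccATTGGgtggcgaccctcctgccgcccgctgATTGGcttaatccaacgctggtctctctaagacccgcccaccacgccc
Mthfd2, chr6:83317605-83317754, minus strand: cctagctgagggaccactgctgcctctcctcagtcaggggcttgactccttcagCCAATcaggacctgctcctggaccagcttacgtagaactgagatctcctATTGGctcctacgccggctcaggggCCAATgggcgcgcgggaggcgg

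The C/EBP-ATF response element, through which ATF4 binds, was searched as TGATGNAAN on both strands and was found in 0 of the 9 enzymes' windows. Of all 27025 genes with a window, 4.5% had a match. The E-box CACGTG, a MYC site, was also found in 0 of 9, against 8.09% of all genes. The antioxidant response element TGACNNNGC, an NRF2 site, matched in Phgdh, where its 9 bases begin 53 bases before the start site on the minus strand of the printed sequence, and in Psph, where they begin at position 5 with the start site counted as the first base, against 14.0% of all genes. The CCAAT box, searched on both strands after the windows had been read, matched in 6 of 9 enzymes and in 41.1% of all genes. Those 6 included Mthfd1 and Shmt1, whose levels did not pass the test, as well as Phgdh, Psat1, Psph and Mthfd2. No match overlapped that of another motif. A match is a description of the letters only, and a window without a match says nothing of sites elsewhere in the gene.

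Of the mitochondrial folate genes, Mthfd2 had the smallest p of the 10 enzymes. MTHFD2 is the dehydrogenase and cyclohydrolase that is known to be high in embryonic, dividing and activated cells. Its gene (chromosome 6, 83305691 to 83325908) was at 27.55 and 27.51 FPKM in the libraries labelled wild type and at 55.7 and 55.0 in those labelled Sema6D-/-. The replicates were nearly equal, and the difference was 0.98 ± 0.05 (SE; adjusted p = 0.000923 by limma), between 0.97 and 0.99 with 1 library left out. Mthfd2l, its paralog on chromosome 5, stood at 0.494 and 0.483 against 1.19 and 1.35 FPKM, or about 31 and 30 against 66 and 79 fragments. It lay under the filter. In the fit without a filter, which called 1.75% of 14653 genes higher, its difference was 0.61 ± 0.08 (SE; adjusted p = 0.0451 by limma). It did not pass without any 1 library (highest adjusted p = 0.270) or with a pseudocount of 0.1 (adjusted p = 0.0697).

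Shmt2, the mitochondrial serine hydroxymethyltransferase gene (chromosome 10, 127517123 to 127522444), was at 13.3 and 10.8 FPKM for wild type and at 18.6 and 17.0 for Sema6D-/-. The labels did not overlap, but the wild type replicates were further apart than those of Psat1, Psph or Mthfd2 relative to their mean. The difference was 0.54 ± 0.11 (SE) with an adjusted p of 0.0422 by limma. The call was lost in fits that left out wild type replicate 2 (adjusted p = 0.0906), Sema6D-/- replicate 1 (0.248) or Sema6D-/- replicate 2 (0.158), and also with no filter (0.107) or no intensity trend (0.0817), while the difference stayed between 0.40 and 0.68.

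Mthfd1l, which releases formate from mitochondria, was at 5.13 and 4.27 against 5.59 and 5.77 FPKM, with the higher wild type library close to the lower Sema6D-/- library. Its difference of 0.23 ± 0.11 (SE; 95% interval -0.04 to 0.50) did not pass (adjusted p = 0.255 by limma). Aldh1l2, the formyl-folate dehydrogenase gene, was the least abundant enzyme in every library, at 0.0864 and 0.0675 against 0.227 and 0.0911 FPKM. These values rest on about 6 and 5 against 14 and 6 fragments, and Sema6D-/- replicate 2 was close to the wild type libraries. No difference was detectable at this depth (0.10 ± 0.07 (SE), adjusted p = 0.522 by limma, without a filter). Aldh1l2 also shares 1056 exon bases with D10Wsu102e on the opposite strand, which stood at 17.6 and 16.8 against 18.7 and 18.0 FPKM, so its few fragments are uncertain.

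Neither cytosolic gene passed, and a difference between the cytosolic and the mitochondrial genes was not tested. Mthfd1, which encodes the trifunctional cytosolic enzyme (chromosome 12, 76255298 to 76319803), was at 9.39 and 10.3 FPKM for wild type and at 9.28 and 10.7 for Sema6D-/-. The labels overlapped, and the difference of 0.02 ± 0.10 (SE) had a 95% interval from -0.23 to 0.26 (adjusted p = 0.939 by limma). Shmt1, the cytosolic hydroxymethyltransferase gene, was low, at 0.379 and 0.794 against 0.474 and 0.343 FPKM, or about 14 and 29 against 16 and 12 fragments. Its labels overlapped too, and it did not pass (-0.16 ± 0.15 (SE), adjusted p = 0.628 by limma, without a filter). Shmt1 shares 184 exon bases with Smcr8 on the opposite strand, which was at 22.0 and 21.5 against 29.9 and 32.0 FPKM and higher in the same fit (adjusted p = 0.0359 by limma), so its few fragments are uncertain too. In all, the libraries of the labels did not overlap, with Sema6D-/- higher, for 3 of 3 serine synthesis genes, 5 of 5 mitochondrial genes and 0 of 2 cytosolic genes, where 28.8% of genes tested and 25.1% of genes without a filter had that order.

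Ratios within a library are free of scaling between libraries and were read as a description, since no exact test of 2 against 2 libraries can go below p = 0.333. FPKM is divided by gene length, so levels of different genes can be set side by side. The ratio of Mthfd2 to Mthfd1 was 2.93 and 2.66 under the label wild type and 6.0 and 5.13 under Sema6D-/-. The ratio of Mthfd1l to Mthfd1 was 0.546 and 0.413 against 0.602 and 0.538, where the labels overlapped. Shmt2 exceeded Shmt1 by 35.0 and 13.6 times against 39.4 and 49.6 times, where Shmt1 rests on about 12 to 29 fragments a library. Mthfd2 exceeded Mthfd2l by 55.8 and 57.0 times against 46.9 and 40.6 times. Within serine synthesis, chosen after the values were seen, Psat1 exceeded Psph by 6.6 and 6.18 against 6.61 and 7.1 times, and these ratios overlapped. Psat1 exceeded Phgdh by 65.2 and 47.6 times under the label wild type and by 11.2 and 16.7 times under Sema6D-/-. Phgdh rests on about 14 and 18 fragments under the label wild type, and its level is uncertain because of its pseudogenes, so this ratio is uncertain too.

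**Figure D3:**
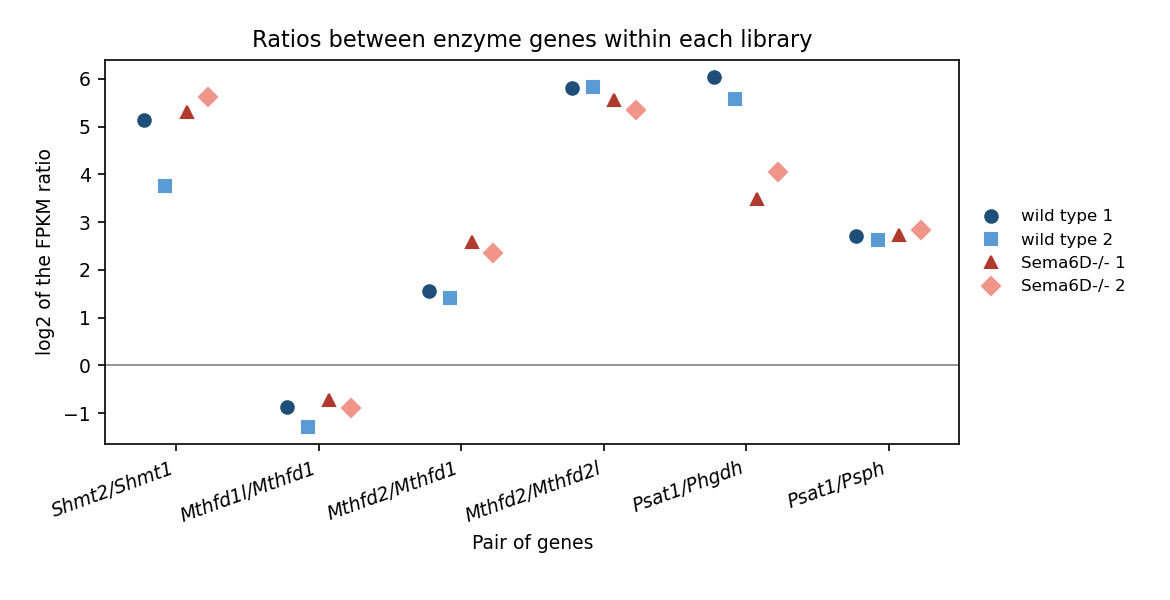
The log2 of the FPKM ratio of pairs of enzyme genes in each of the 4 libraries, with 1 symbol per library and a line where both genes are equal. Mthfd2 against Mthfd1 lies at 1.55 and 1.41 under the label wild type and at 2.59 and 2.36 under Sema6D-/-, Psat1 against Phgdh falls from 6.03 and 5.57 to 3.48 and 4.06, and Psat1 against Psph stays between 2.63 and 2.83. The level of Phgdh is uncertain, and so is its ratio.

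For other genes of folate and of the paths that use its carbon units, the counts called stood near the 4.8% higher and 4.91% lower of all tested genes, and nothing is read from them. Of 14 tested genes of the folate cycle and folate transport 0 passed in either direction by limma, with 2 higher and 2 lower at an unadjusted p under 0.05 (median difference 0.00, the same as over all tested genes). Slc46a1, the proton-coupled folate transporter gene, was nearest to the threshold at 4.53 ± 0.11 against 5.87 ± 0.24 FPKM (SD, n = 2; adjusted p = 0.093 by limma). Mtr, the methionine synthase gene, was at 6.69 ± 0.06 against 5.22 ± 0.58 and Folr1, a folate receptor gene, at 3.56 ± 1.3 against 1.89 ± 0.12 FPKM. Folr2, the folate receptor of macrophages, was named after its values were seen: it stood at 364 and 375 against 380 and 389 FPKM. The mitochondrial donors Gcsh and Dld, the 2 of 6 listed genes that were tested, did not pass, also not at an unadjusted p under 0.05.

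Purine synthesis, the main user of formyl-folate, had 1 of 13 genes higher and 0 lower, with a median difference of 0.01. The 1 was Impdh1, which acts on the branch to guanine nucleotides and uses no folate, at 8.97 ± 0.43 against 12.3 ± 0.80 FPKM (adjusted p = 0.035 by limma). Leaving out any 1 library ended this call (highest adjusted p = 0.223). Prps1, Adssl1 and Gmps were at 7.65 against 10.2, 44.4 against 55.8 and 10.5 against 11.4 FPKM and did not pass. Of 9 tested genes of the methionine cycle, transsulfuration and glutathione 0 passed, with 3 higher and 1 lower at an unadjusted p under 0.05. The glutathione synthesis gene Gclc was at 29.2 ± 0.41 against 37.7 ± 4.6 FPKM, and Mtap, Ahcyl2 and Ahcyl1 were at 14.2 against 17.7, 24.4 against 28.0 and 68.7 against 61.1. Of 16 serine and glycine carriers and other users of serine 1 was higher, the amino acid transporter gene Slc38a2 (28.9 ± 0.55 to 35.0 ± 0.35 FPKM, adjusted p = 0.034 by limma), and not without any 1 library (highest adjusted p = 0.199). Slc1a5, Sfxn3 and Serinc1 were at 44.0 against 36.0, 22.7 against 26.0 and 169.7 against 190.8 FPKM and did not pass.

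Genes of glycolysis that lead to 3-phosphoglycerate were lower where they were called. Of 12 tested genes of glycolysis 0 were higher and 3 lower, with a median difference of -0.19. The list held the steps up to 3-phosphoglycerate and also Pgam1, of the step that drains it, which did not pass. The aldolase gene Aldoc fell from 7.33 ± 0.68 to 2.92 ± 0.59 FPKM and the hexokinase genes Hk1 and Hk2 from 31.6 ± 0.28 to 24.6 ± 0.50 and from 23.4 ± 0.43 to 18.3 ± 0.59 (adjusted p = 0.012, 0.018 and 0.027 by limma). More abundant genes of the same 2 steps, named after their values were seen, did not pass. The aldolase gene Aldoa was at 1067 against 1095 FPKM and the hexokinase gene Hk3 at 248 against 253. Tpi1 was at 214.7 ± 18 against 183.7 ± 12 and did not pass either. Gapdh, named after its values were seen, was not tested and is listed at 0 in 3 libraries, where a 0 can be a failed estimate. With 1 library left out, 1 of these genes was lower, and 0 without Sema6D-/- replicate 1.

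Of the genes known to act on transcription of serine synthesis enzymes or upstream of them, 1 of 9 was higher and 0 lower. Atf4, the activator of the amino acid response, rose from 145.9 and 140.8 to 208.2 and 197.2 FPKM (0.50 ± 0.05 (SE), adjusted p = 0.006 by limma), and not without Sema6D-/- replicate 1 (adjusted p = 0.0621). Nfe2l2, which encodes NRF2, was at 156 ± 4.3 against 149 ± 6.7 and Myc at 22.3 ± 0.35 against 24.1 ± 0.82 FPKM, and neither passed. The others were the histone methyltransferase gene Ehmt2 (41.0 against 40.0), the demethylase gene Kdm4c (8.57 against 7.99), Trp53 (31.4 against 28.8), Mdm2 (64.6 against 57.0), the amino acid-sensing kinase gene Eif2ak4 (5.14 against 6.02) and Mtor (5.47 against 5.83). Of 17 other targets of the amino acid response 10 were higher and 1 lower, with a median difference of 0.50. Over all tested genes 4.8% were higher and 4.91% lower, and this list was chosen with earlier results known. Among the 10 were Asns (14.6 ± 2.2 to 49.0 ± 3.9 FPKM), Atf5, Nupr1 and Slc7a1. The lower gene was Slc7a11 (7.30 to 4.19 FPKM, named after its values were seen). Chac1, also named after its values were seen, was 1 of the 10 (0.944 to 3.89 FPKM). It was tested only through its values under the label Sema6D-/- and so had to differ. Without Sema6D-/- replicate 1 the higher count was 3, and without replicate 2 it was 5.

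The mitochondrial folate enzymes are known to rise in dividing cells, and genes of proliferation were read beside them. Of 16 tested 1 was higher, 2 were lower and 13 did not pass, with a median difference of -0.33, and the labels did not overlap with Sema6D-/- lower for 13 of 16, where 27.4% of all tested genes had that order. Mki67, a marker of cycling cells, fell from 2.24 ± 0.01 to 1.03 ± 0.04 FPKM and Birc5, a mitotic gene, from 3.52 ± 0.06 to 1.98 ± 0.14, and leaving out any 1 library ended both calls (highest adjusted p = 0.117 and 0.158 by limma). The higher gene was Pcna, the sliding clamp of DNA replication and repair, at 153 ± 5.8 against 244 ± 9.1 FPKM (adjusted p = 0.00308 by limma), and its call held with any 1 library left out (highest adjusted p = 0.0345). Tk1 was at 2.14 against 1.17 and did not pass.

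**Figure D4:**
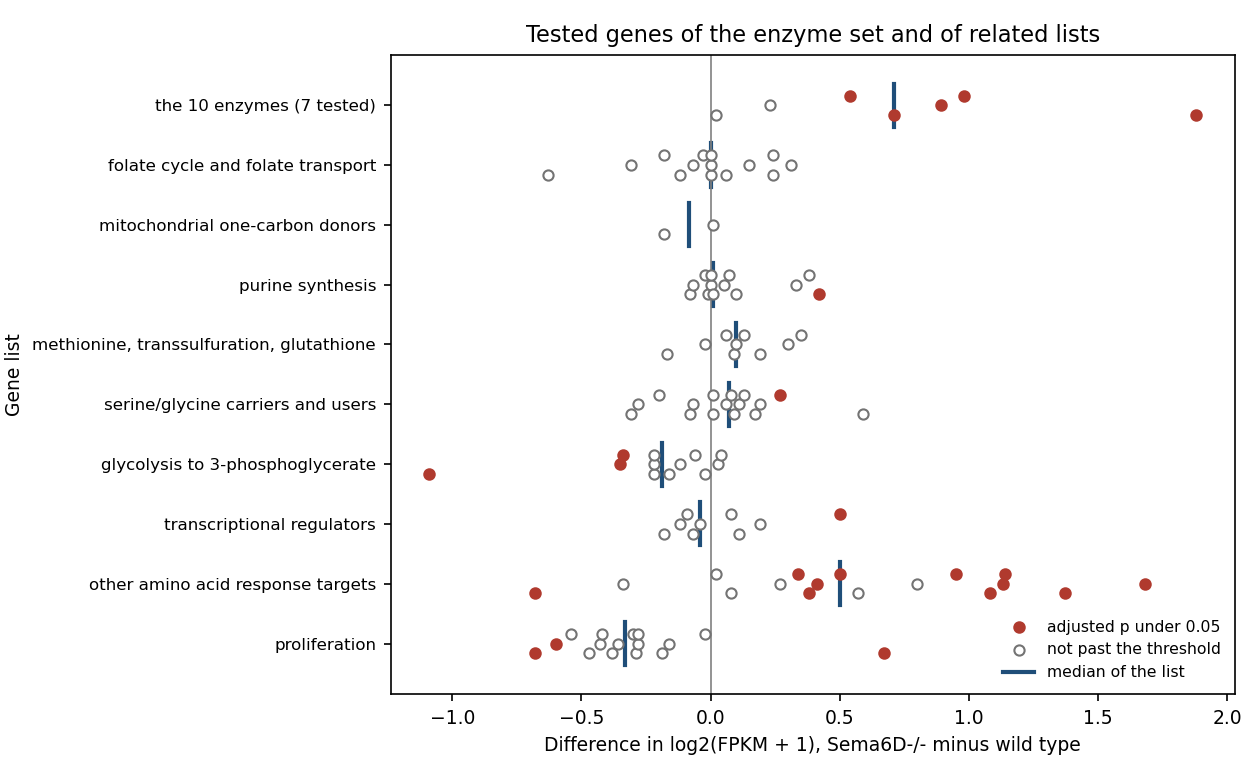
Difference in log2(FPKM + 1), Sema6D-/- minus wild type, for each tested gene of the enzyme set and of 9 related lists (red, adjusted p under 0.05 by limma; open, not past the threshold; blue bar, median of the list). The medians are 0.71 for the 7 tested enzymes, which include Phgdh and were chosen with results known, 0.50 for other amino acid response targets, -0.19 for glycolysis and -0.33 for proliferation, and all others lie within 0.10 of 0.

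The genes whose 4 values were most like those of an enzyme were sought by the Euclidean distance between log2(FPKM + 1) values centred on their mean over the 4 libraries, as a description with 4 points per gene. Nearest to Phgdh was S100a8, a calcium-binding protein gene of neutrophils, at 72.2 and 79.1 against 295 and 232 FPKM (distance 0.12), then Rnaset2b (0.197) and S100a9 (0.282). The added 1 shrinks the change of low genes on this scale, so near genes need not have like fold changes. In mean FPKM Phgdh rose 7.69-fold and S100a8 3.49-fold, and Rnaset2b was at 0.125 and 0.122 against 3.69 and 3.03. Other pseudocounts were not tried for these distances. Nearest to Mthfd2 were Spg11 (0.024), Vegfa (0.068) and the cationic amino acid transporter gene Slc7a1 (0.071). Genes with a like difference between the labels lie near each other by this measure, so nearness does not tell the cell type behind an enzyme's difference. Of 11 tested neutrophil markers 6 were higher and 1 lower, Mmp9 (named after its values were seen), in the same libraries in which the enzymes were higher. Mpo, 1 of these 6, averaged 0.916 FPKM under the label wild type and 2.70 under Sema6D-/-. It was tested only through the latter values, as were Elane (0.421 to 1.75) and Retnlg (0.497 to 1.90), which did not pass. These 3 genes, named after their values were seen, had to differ to be tested, as Phgdh did. Basophil and mast cell markers were also higher in sum, at 2.96 and 2.24 against 11.5 and 7.03 FPKM, with Prss34 and Mcpt8 the most abundant, and those of eosinophils stood at 15.6 and 17.9 against 23.9 and 18.8. That last sum mixes directions, since Ccr3 (3.99 to 9.0 FPKM in the mean) and Prg2 (0.947 to 5.95, named after its values were seen) were called higher and Siglec5, the row matched to Siglecf, lower (11.7 to 5.56). Prg2 too was tested only through its values under the label Sema6D-/- and so had to differ. For Phgdh, whose wild type level was under 1 FPKM, as for the other enzymes, the part of such cells in the difference was not tested. In bulk RNA a change in the number of cells of a type and a change in RNA per cell cannot be told apart.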

How the data were processed

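Macrophage RNA was sequenced from strand-specific libraries (Agilent SureSelect), per the labels' protocols. The authors deposited 1 FPKM value per gene symbol and library, made with TopHat2 2.0.13, Bowtie2 2.2.3, SAMtools 0.1.19 and Cuffnorm 2.2.1 on mm10, per the submitters' processing notes. Cuffnorm normalizes between libraries, and the sources used here do not give the annotation, the strand setting or the treatment of reads with several matches. Each file held 23284 symbols, of which 25 without a value were dropped.

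Groups follow the genotype label. Values were tested as log2(FPKM + 1) with limma 3.58.1 in R 4.3.3 (lmFit, eBayes with an intensity trend, two-sided) for genes averaging 1 FPKM or more, at a Benjamini-Hochberg adjusted p under 0.05; a fold on this scale understates the change of low genes. Enzymes under the filter were fitted without it. Means are ± SD over 2 libraries. Depth was estimated from the most frequent low step of FPKM times length in genes with 1 GENCODE vM21 transcript, as the deposited values hold no counts. The fragments behind a value follow from that depth and the length of all annotated exons of the gene merged. Merged exons can be longer than 1 transcript, so these fragment numbers may be too high. Positions are from GENCODE vM21 (GRCm38, the assembly of mm10), and copies were sought with BLAST 2.17.0 at 90% identity over at least 100 bases.

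The fit was tested on simulated data for this comparison of 10115 genes, with 50 genes shifted by each log2 size. The shifted genes were drawn from those with a mean of at least 5 FPKM. Recovery was thus not measured for lower genes such as Phgdh and the enzymes under the filter. Recovery was 78% for shifts of 0.5, 98% for 1 and 100% for 2 or 3, and 18 of 206 calls were false. The 9 pathway and 10 marker lists held 204 entries, of which 202 were found. Named were all enzymes, up to 4 genes per pathway list by p, all tested regulators, up to 2 abundant markers per list, the 3 nearest genes of Phgdh and Mthfd2, and Sema6d; 1 gene the rule names is not reported here. Members and lists were chosen with earlier results of these data known.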

Additional observations from a re-analysis of the deposited data

How the results depend on the processing

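The 5 enzymes called higher numbered 5 with a pseudocount of 0.1 or 5, without a filter (where Mthfd2l entered and Shmt2 left), after median-of-ratios scaling or quantile normalization, with robust estimation and with the replicate block, 4 without an intensity trend or above a mean of 5 FPKM, and 3 to 5 with 1 library left out. Without the trend Shmt2 lost its call. Above a mean of 5 FPKM 6 enzymes were tested, since Phgdh (mean 2.98 FPKM) was left out, and none of those tested lost a call. None was called lower under any of these settings. Of 117 refits of single enzymes, 101 kept direction and side of the threshold, 13 lost the call and 3 changed sign: Mthfd1 without wild type replicate 1 (-0.047) or Sema6D-/- replicate 2 (-0.079; range up to 0.111) and Shmt1 without wild type replicate 2 (0.029). Among other named genes Dld changed sign without wild type replicate 1 (-0.005) or Sema6D-/- replicate 2 (-0.043; range up to 0.071), and Mtor without wild type replicate 2 (-0.005; range up to 0.166).

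The numbers in the titles could pair the libraries, but no label says so, and the differences between replicate 1 and 2 were unrelated between labels across genes (r = -0.0183). With the replicate block, genes called higher numbered 300, and purine synthesis (0 higher), serine carriers (0 higher) and proliferation (0 lower) lost their calls, as did Mthfd2l without a filter (adjusted p = 0.123). Over all genes 486 were higher and 497 lower, against 256 and 248 without a filter, 261 and 327 without an intensity trend, and 72 to 276 higher and 87 to 290 lower with 1 library left out.

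Purine synthesis had 0 higher without a filter or a trend, 2 above a mean of 5 FPKM, 3 with robust estimation and 0 to 1 with 1 library left out. Methionine, transsulfuration and glutathione genes had 1 higher above a mean of 5 FPKM and 2 with robust estimation. Serine carriers and users had 0 higher without a filter, without a trend or with any 1 library left out, and 1 lower with robust estimation. Proliferation had 1 lower without a filter, 0 above a mean of 5 FPKM and 0 with any 1 library left out. With 1 library left out, folate genes had 0 to 1 lower, glycolysis 0 to 1 lower, regulators 0 to 1 higher, and amino acid response targets 3 to 9 higher and 0 to 2 lower. The cause of these changes was not tested, and the fits with 1 library left out also hold fewer libraries. In fits with 1 library left out, a label with 1 library is assumed to vary like the other. Enzymes under 1 FPKM rest on few fragments, which limits what can be detected for Shmt1, Aldh1l2 and Mthfd2l.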
